A study of Homo sapiens with 60 samples.

Results

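The NRF2 antioxidant and NADPH genes are a list of 38 genes that carry the cell's response to electrophiles and oxidants. They were chosen by gene symbol, with earlier results of these data known, and all 38 were found among the 60675 genes of the count table and passed the filter on low counts that left 17680 genes for testing. They were followed in SW1783, an established human astrocytoma cell line (ATCC HTB-13) grown in Leibovitz's L-15 medium, which was exposed for 24 h to herbal extracts made with 70% ethanol. By role the list holds 4 regulators, 3 genes of glutathione synthesis and recycling, 5 of the thioredoxin and peroxide system, 4 NADPH-producing or pentose phosphate enzymes, 12 detoxification enzymes, 4 transport genes and 6 further targets.

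NRF2, the product of NFE2L2, is a transcription factor that KEAP1 holds in the cytoplasm and delivers to the proteasome. Electrophiles and oxidants modify KEAP1, NRF2 accumulates in the nucleus, pairs with a small MAF protein such as MAFG or MAFF and binds antioxidant response elements in the DNA near its targets. The targets make glutathione, recycle thioredoxin, reduce quinones and carbonyls, export conjugates and supply the NADPH that these reactions use, and in glioma cells the pathway is known for its part in resistance to oxidants and drugs.

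The exposures were Coptidis Rhizoma at 0.56, 2.8 and 14 µg/mL, Bupleuri Radix at 8.4, 42 and 210 µg/mL, and 6 further extracts at 20, 100 and 500 µg/mL, called low, medium and high doses here. The 6 were the herbs Cimicifugae Rhizoma, Aconiti Lateralis Radix Preparata, Citri Unshius Pericarpium and Zizyphi Fructus, and a pair of formulas, Banhasasim-tang and Yijung-tang. Where an extract's IC20 lay below 500 µg/mL, that concentration served as its high dose, per the series text. Control cells were given vehicle, 0.1% DMSO per the sample labels and 2% per the series text. There were 3 libraries of vehicle and of each dose of Citri, Cimicifugae and Bupleuri, and of the medium and low doses of Aconiti, 2 of high-dose Aconiti, of each dose of Coptidis and Zizyphi and of high-dose and medium-dose Yijung-tang, 1 of low-dose Yijung-tang, and for Banhasasim-tang a single library at each dose. These 58 libraries held 15996140 to 30990226 counts each. Nothing in the labels says that replicates came from separate cultures, so p-values reflect only how these samples vary, and that variation may be technical. One low-dose Yijung-tang library (replicate 1) and one high-dose Aconiti library (replicate 1) diverged from their groups and were left out by the rule that defines the list, and results with both are given beside those without. The libraries are of 1 cell line, and of the markers of astrocytes GFAP, S100B, AQP4 and ALDH1L1 stayed under 0.5 CPM in all 58 libraries while GJA1 had 146 to 308 CPM, and VIM 3480 to 7960 CPM. The summed level of the 8 astrocyte markers was 204 to 410 CPM, that of 6 microglia and leukocyte markers 147 to 281 CPM, nearly all of it CD68, and that of 5 epithelial markers 60.5 to 265 CPM, nearly all of it KRT18, while EPCAM and CDH1 stayed under 0.5 CPM.

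In unexposed cells the list spanned a wide range of levels. Per kilobase of exon, the vehicle libraries averaged 271 CPM per kb for PRDX1, a peroxiredoxin, 178 for TXN, thioredoxin, 65.0 for PGD and 47.3 for NQO1, all given as CPM per kb, whereas GCLC had 3.64, OSGIN1 3.56, NMRAL2P 0.582 and ABCC2 0.142 CPM per kb. Several members share reads with neighbours or copies, and whether the counting used strand is not stated in the labels or files. Exons of NFE2L2 overlap AGPS on the opposite strand, those of SLC48A1 overlap HDAC7 on the opposite strand and those of MAFG overlap SIRT7 on the same strand, and these neighbours held 117%, 317% and 33.4% of the member's own counts. AKR1C1 and AKR1C2, and TRIM16 and TRIM16L, are near-identical copies between which reads can be split.

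Promoters are shown first because the response is read through antioxidant response elements, and those of 4 members that hold the element's core are printed, chosen because they rose after Yijung-tang and are among the 12 members described across the extracts. The windows of 300 bases, from 250 before to 50 after the gene's start, come from RefSeq on GRCh38.p14, which held 30 of the 38 members in 42 windows. The core searched for was TGACNNNGC on either strand, and it is given in capitals, read as GCNNNGTCA where it lies on the minus strand of the gene.
GCLM, chr1:93909381-93909680, minus strand: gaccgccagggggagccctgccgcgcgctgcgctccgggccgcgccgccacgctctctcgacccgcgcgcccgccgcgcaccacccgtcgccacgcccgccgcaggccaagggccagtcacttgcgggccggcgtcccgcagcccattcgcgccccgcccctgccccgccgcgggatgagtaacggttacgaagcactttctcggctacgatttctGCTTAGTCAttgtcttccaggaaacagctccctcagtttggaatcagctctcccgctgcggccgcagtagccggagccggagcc
TXNRD1, chr12:104215529-104215828, plus strand: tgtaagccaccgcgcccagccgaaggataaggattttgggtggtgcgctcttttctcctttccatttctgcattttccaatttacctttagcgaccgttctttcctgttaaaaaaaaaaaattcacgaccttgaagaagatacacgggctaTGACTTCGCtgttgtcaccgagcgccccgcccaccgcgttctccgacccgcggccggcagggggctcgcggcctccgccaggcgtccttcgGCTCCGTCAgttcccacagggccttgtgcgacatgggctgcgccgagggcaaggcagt
ME1, chr6:83431002-83431301, minus strand: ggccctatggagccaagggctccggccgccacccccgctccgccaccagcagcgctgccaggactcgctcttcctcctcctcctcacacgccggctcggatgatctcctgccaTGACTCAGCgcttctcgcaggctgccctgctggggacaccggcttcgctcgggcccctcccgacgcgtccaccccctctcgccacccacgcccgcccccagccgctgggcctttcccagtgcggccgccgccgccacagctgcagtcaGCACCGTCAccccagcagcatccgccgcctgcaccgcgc
PGD, chr1:10398814-10399113, plus strand: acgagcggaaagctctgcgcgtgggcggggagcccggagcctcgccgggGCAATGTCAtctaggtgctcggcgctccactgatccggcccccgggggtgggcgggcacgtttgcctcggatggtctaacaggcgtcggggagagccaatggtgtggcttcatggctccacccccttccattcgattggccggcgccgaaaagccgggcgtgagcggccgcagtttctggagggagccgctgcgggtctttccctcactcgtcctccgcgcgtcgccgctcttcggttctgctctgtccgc
The core was found in 11 of the 42 windows (26.2%), those of 10 members, and in 13.3% of all 35116 promoters of the same length. In GCLM it began 34 bases before the start of the gene, in TXNRD1 99 and 8 bases before it, in ME1 137 bases before and 11 bases after it, and in PGD 201 bases before it. Another TXNRD1 window, chr12:104286782-104287081, held the core 102 bases before its own start and is not printed. Of the 10 members with the core, 7 rose after Yijung-tang, as did 23 of all 38, and the call of GCLM was lost without any 1 library. KEAP1, whose messenger RNA passed the test as higher in none of the dose comparisons, also held the core at 54 and 31 bases before its start in 1 window. Its other window held 0 matches. A match of these letters is a description and not a binding site, and windows without it may hold elements elsewhere.

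The main question was which members an extract changed with dose. High and low doses of one extract carry the same set number in the library names, so they were compared with each other, and for Yijung-tang, whose low dose kept 1 library, high was compared with medium dose. A member is said to rise or fall where the adjusted p of edgeR's quasi-likelihood test, corrected after Benjamini and Hochberg over all 17680 genes, was under 0.05. In bulk samples fewer cells of a kind and less RNA per cell cannot be told apart. After Cimicifugae 23 of 38 members rose and 0 fell, where 10.4% of all tested genes were called (4.67% higher and 5.7% lower). After Yijung-tang, high against medium dose, also 23 rose and 0 fell against a background of 8.93% (3.98% higher, 4.95% lower). After Aconiti 14 rose and 0 fell against 9.43% (4.21% higher, 5.21% lower). With these extracts 0, 0 and 3 members were lower at an unadjusted p under 0.05, and DESeq2 also called 0 lower in each. The median log2 fold change of the 38 members was 0.19 after Cimicifugae, 0.29 after Yijung-tang and 0.11 after Aconiti, against 0.000104, -0.00228 and 0.0027 over all tested genes.

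The other herbs differed in the balance of higher and lower members. Coptidis raised 15 members and lowered 14, but 65.4% of all genes were called (33.1% higher, 32.3% lower), so the members' share of higher calls lay near the background. Bupleuri raised 15 and lowered 6, against 39% of all genes (20.5% higher, 18.5% lower). Citri raised 9 and lowered 2, against 13.6% (6.35% higher, 7.24% lower), and Zizyphi raised 5 and lowered 2, against 7.24% (3.05% higher, 4.19% lower). The Citri count was 7 without high-dose replicate 3 (11.4% of all genes called) or without low-dose replicate 2 (10.7%). That of Zizyphi was 3 without high-dose replicate 3 (2.68%) or without low-dose replicate 2 (3.79%), and 4 without low-dose replicate 3 (3.2%). With both divergent libraries in the fit, the members called were 4 for Cimicifugae, 3 for Yijung-tang, 13 for Aconiti, 20 for Coptidis, 10 for Bupleuri, 1 for Citri and 0 for Zizyphi, and of all tested genes 0.605%, 0.359%, 8.5%, 43.4%, 13.2%, 1.01% and 0.151%. In fits that held only the libraries of the pair compared, a check added after the data were seen, they were 20, 26, 21, 32, 16, 11 and 3, in the same order, and of all tested genes 8.96%, 11.5%, 15.5%, 72.2%, 32.8%, 15.0% and 3.56%. Of the 6 lower calls of Bupleuri, 1 was kept in every fit that left out 1 library. Its lower calls numbered 4 with DESeq2, 2 with only the pair's libraries and 1 with both divergent libraries, beside 15, 14 and 9 higher.

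Summed markers of cell types moved with dose beside these counts. The summed level of the 5 epithelial markers was lower at the higher dose in all 7 comparisons, with no overlap. It was 60.5 to 64 CPM at high against 231 to 254 CPM at low dose of Bupleuri, and 121 to 124 against 185 to 200 CPM for Cimicifugae. After Yijung-tang it was 120 to 125 CPM at high against 195 to 200 CPM at medium dose. Aconiti had 152 to 157 CPM at high against 222 to 228 CPM at low dose. It was 134 to 145 CPM at high against 220 to 221 CPM at low dose of Citri, 165 to 167 against 207 to 220 CPM for Coptidis and 181 to 195 against 204 to 218 CPM for Zizyphi. The summed microglia and leukocyte markers were 269 to 281 CPM at high against 184 to 189 CPM at low dose of Coptidis, 252 to 276 against 176 to 196 CPM for Bupleuri, and 228 to 229 CPM at high against 180 to 191 CPM at medium dose of Yijung-tang. They were 207 to 211 CPM at high against 178 to 197 CPM at low dose of Citri, 154 to 175 against 180 to 203 CPM for Zizyphi, and overlapped between doses of Cimicifugae and Aconiti. Nearly all of this sum was CD68, while PTPRC had 12.3 to 14.2 CPM in the vehicle and 2.79 to 14.2 CPM over all 58 libraries. The summed astrocyte markers were 388 to 410 CPM at high against 303 to 323 CPM at low dose of Bupleuri, 287 to 298 against 320 to 328 CPM for Zizyphi, and overlapped in the other 5 comparisons. The 6 neuron markers summed to 137 to 142 CPM at high against 185 CPM at low dose of Bupleuri, and 120 to 125 against 164 CPM for Coptidis. Their sum was also lower without overlap at the higher dose of the other extracts, except Aconiti with 190 to 194 against 178 to 185 CPM. The 5 glioma and mesenchymal markers summed to 12500 to 12600 CPM at high against 8980 to 9180 CPM at low dose of Coptidis. Their sum was lower without overlap after Aconiti and Yijung-tang and overlapped after the others. That of 5 endothelial markers was 37 to 39.6 against 23.7 to 29.1 CPM for Bupleuri. It was also higher without overlap after Coptidis and Zizyphi and overlapped after the others. The sum of 5 oligodendrocyte markers was 11.6 to 13.7 CPM at high against 7.7 to 8.4 CPM at low dose of Coptidis. Higher sums without overlap were also seen after Bupleuri, Aconiti, Zizyphi and Cimicifugae, while the doses of Citri and Yijung-tang overlapped. Over all 58 libraries this sum stayed between 5.34 and 13.7 CPM. The part of these markers in the results on the members was not tested.

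**Figure D1:**
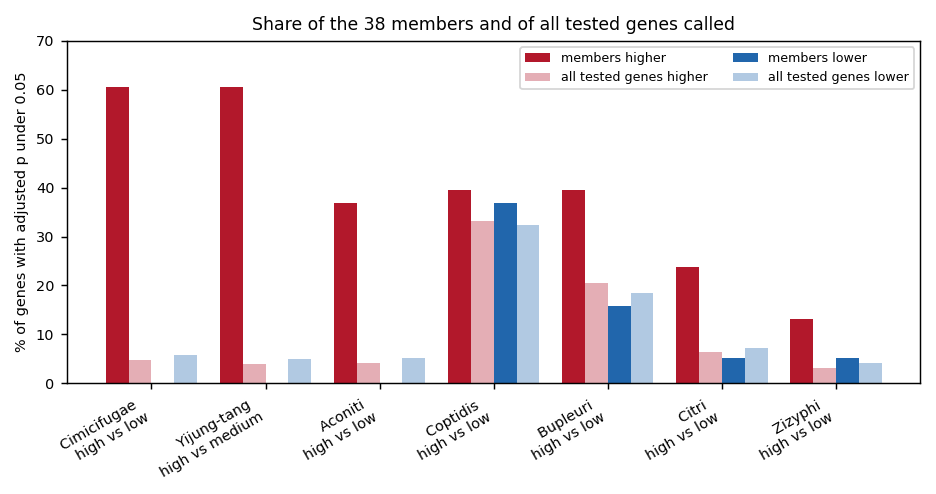
Share of the 38 members (dark bars) and of all 17680 tested genes (pale bars) that passed an adjusted p under 0.05 in each dose comparison, in percent on an axis that starts at 0, with higher in red and lower in blue. After Cimicifugae and Yijung-tang 23 of 38 members were higher and 0 lower, whereas after Coptidis 15 were higher and 14 lower beside 33.1% and 32.3% of all genes.

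Across the 7 comparisons, NMRAL2P and SRXN1 were the members that rose in all 7, NQO1 rose in 6, and TXNRD1 rose in 6 and fell in 1. TXN, which encodes the thioredoxin that TXNRD1 reduces, and ABCC2, an exporter of conjugates that stayed between 0.824 and 1.78 CPM, were called in none, with log2 fold changes of -0.05 to 0.16 and -0.38 to 0.23. TXN and ABCC2 are named here because they made up this count of 2.

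**Figure D2:**
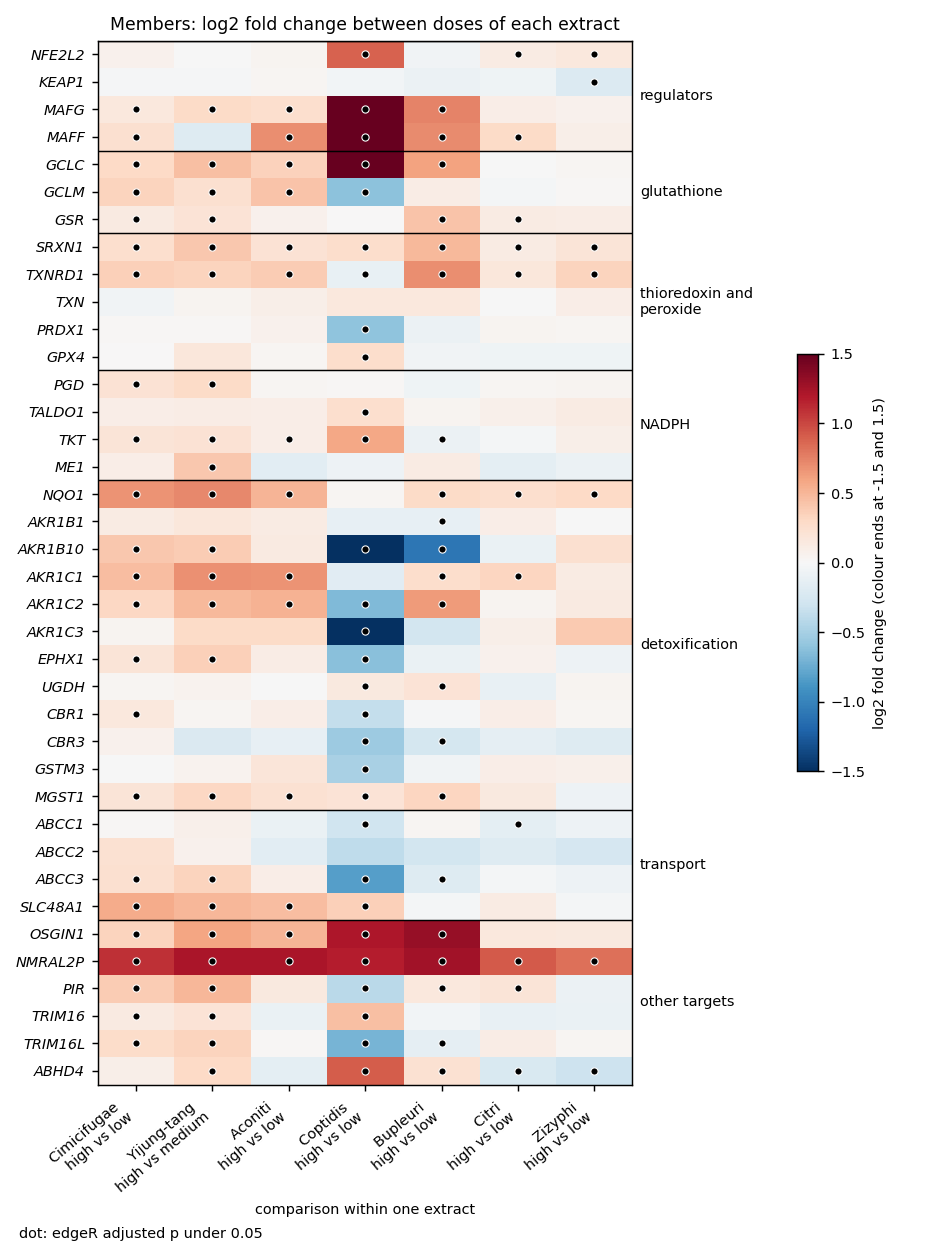
Log2 fold change of each of the 38 members (rows, grouped by role) between doses of 7 extracts (columns); red is higher and blue lower at the higher dose, colours end at -1.5 and 1.5, and a dot marks an adjusted p under 0.05. NMRAL2P and SRXN1 carry a dot in all 7 columns, and AKR1B10 is blue after Coptidis and Bupleuri and red with a dot after Cimicifugae and Yijung-tang.

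Among the regulators, the messenger RNA of NRF2 itself rose in 3 of 7 comparisons, and most after Coptidis. NFE2L2 had 138 and 137 CPM at the high dose of Coptidis, against 76.3 and 73.0 CPM at the low dose (log2 fold change 0.89, SE 0.0475, adjusted p = 2.88e-23). Both high-dose libraries lay above all other libraries of the series, of which the highest, high-dose Banhasasim-tang, had 96.9 CPM. NFE2L2 also rose by small amounts after Zizyphi (0.16, SE 0.0483, adjusted p = 0.026) and Citri (0.13, SE 0.0392, adjusted p = 0.0217) on the log2 scale. The Zizyphi call was lost on leaving out any 1 of its 4 libraries (adjusted p 0.072 to 0.186), and that of Citri without high-dose replicate 1 or 3 or low-dose replicate 2 (adjusted p 0.0786, 0.0614 and 0.0896). KEAP1, the repressor, fell with dose after Zizyphi alone among the 7 tests, with 43.4 and 40.3 CPM at the high dose against 48.5 and 48.6 CPM at the low dose (-0.21, SE 0.0534, adjusted p = 0.00832). That call was lost without high-dose replicate 3 (adjusted p = 0.203) or low-dose replicate 2 (adjusted p = 0.0544).

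The small MAF partners MAFF and MAFG each rose in 5 of 7 comparisons. After Coptidis MAFF had 13.7 and 14.3 CPM at the low dose, 23.1 and 21.4 CPM at the medium dose and 75.7 and 78.0 CPM at the high dose, a 5.52-fold difference of high over low dose (log2 fold change 2.465, SE 0.083, adjusted p = 3.6e-32). MAFG had 194 and 184 CPM at the high dose and 57.6 and 52.8 CPM at the low dose (1.78, SE 0.0572, adjusted p = 4.49e-33). After Bupleuri MAFG rose to 105, 107 and 98.8 CPM, against 61.2, 61.7 and 62.6 CPM at its low dose (0.75, SE 0.0464, adjusted p = 6.57e-20). MAFF rose after Aconiti, with 21.7 and 21.3 CPM at the high dose against 12.9, 14.2 and 12.9 CPM at the low dose (0.69, SE 0.0822, adjusted p = 4.5e-09). After Yijung-tang MAFF had 11.7 and 12.6 CPM at the high dose and 12.7 and 15.1 CPM at the medium dose and was not called. The groups did not overlap in any of these called comparisons. After Cimicifugae the MAFF call was kept in 0 of 6 fits without 1 library and the MAFG call in 2 of 6 (adjusted p up to 0.148 and 0.12 by edgeR). The MAFG call was kept in 4 of 5 such fits for Aconiti and 3 of 4 for Yijung-tang. That of MAFF after Citri was kept in 5 of 6.

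Glutathione synthesis begins with glutamate-cysteine ligase, made of the catalytic subunit GCLC and the modifier subunit GCLM, which lowers the feedback inhibition of the enzyme by glutathione. After Coptidis the 2 subunits moved apart. GCLC had 30.9 and 32.3 CPM at the low dose, 46.5 and 40.9 CPM at the medium dose and 108 and 108 CPM at the high dose (high against low 1.78, SE 0.0586, adjusted p = 1.47e-32). GCLM had 80.8 and 80.6 CPM at the low dose, 84.6 and 76.9 CPM at the medium dose and 53.8 and 51.4 CPM at the high dose (-0.61, SE 0.0788, adjusted p = 3.03e-09). Coptidis at high dose thus held the 2 lowest GCLM values of the 58 libraries together with the 2 highest GCLC values. With both divergent libraries in the fit the GCLM difference was -0.62 with an adjusted p of 0.0631.

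Cimicifugae, Aconiti and Yijung-tang raised both subunits. After Cimicifugae GCLC had 36.9, 35 and 34.9 CPM at the high dose against 31.6, 27.8 and 27.6 CPM at the low dose (0.29, SE 0.0521, adjusted p = 4.97e-05), and GCLM 122, 109 and 118 CPM against 101, 88.2 and 87.0 CPM (0.33, SE 0.0599, adjusted p = 8.19e-05). After Aconiti GCLM had 117 and 124 CPM at the high dose and 90.1, 90.2 and 88.4 CPM at the low dose (0.43, SE 0.066, adjusted p = 4.12e-06), and GCLC rose by 0.35 (SE 0.057, adjusted p = 8.07e-06). The Aconiti values rest on leaving out the divergent high-dose library: with both divergent libraries the differences were -0.003035 for GCLM (adjusted p = 0.996) and 0.01 for GCLC (adjusted p = 0.979). After Yijung-tang GCLC rose by 0.45 (SE 0.0614, adjusted p = 2.26e-07), and GCLM by 0.24 (SE 0.0734, adjusted p = 0.0257), a call that was lost without any 1 of the 4 libraries (adjusted p 0.0983 to 0.112). With both divergent libraries the calls of Cimicifugae were also lost, at 0.30 for GCLC (adjusted p = 0.931) and 0.34 for GCLM (adjusted p = 1.0). Those of Yijung-tang were lost at 0.46 for GCLC (adjusted p = 0.925) and 0.25 for GCLM (adjusted p = 1.0). Bupleuri raised GCLC, with 42.0, 41.2 and 44.2 CPM at the high dose against 27.6, 28.3 and 28.0 CPM at the low dose (0.60, SE 0.0506, adjusted p = 6.06e-15), while GCLM had 89.8, 88.3 and 84.4 CPM against 81.0, 82.3 and 79.7 CPM and was not called. After Citri and Zizyphi neither subunit was called. GSR, which returns oxidised glutathione to its reduced form, rose most after Bupleuri, to a mean of 86.8 ± 2.52 CPM at the high dose against 64.8 ± 3.62 CPM at the low dose (SD, n = 3 each; 0.42, SE 0.0424, adjusted p = 2.88e-12 by edgeR).

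**Figure D3:**
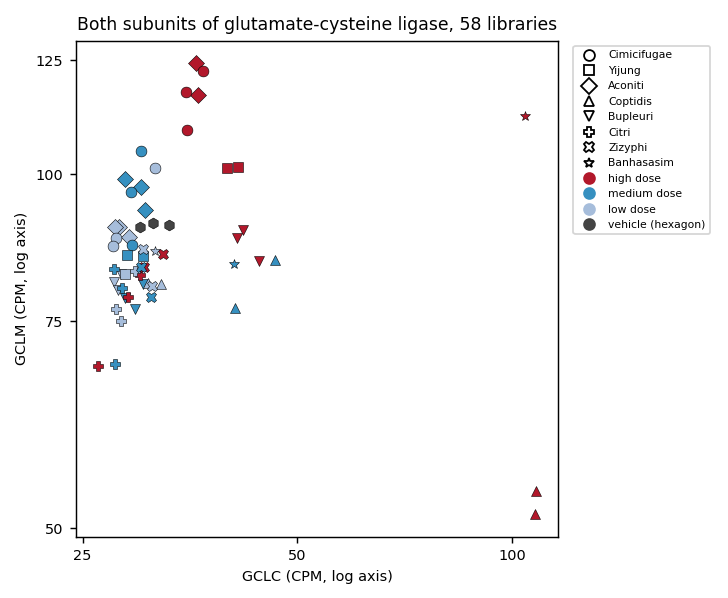
GCLC (horizontal, CPM, log axis) against GCLM (vertical, CPM, log axis) in each of 58 libraries, with the extract given by the shape and the dose by the colour. High-dose Coptidis lies alone at the lower right with about 108 CPM of GCLC and 51.4 and 53.8 CPM of GCLM, and high-dose Banhasasim-tang at the upper right with 104 and 112 CPM.

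In the thioredoxin and peroxide system, SRXN1 encodes sulfiredoxin, which restores overoxidised peroxiredoxins, and TXNRD1 encodes the selenoenzyme thioredoxin reductase. SRXN1 had 113, 119 and 122 CPM at the high dose of Bupleuri, against 82.8, 82.2 and 87.4 CPM at the low dose (0.49, SE 0.0417, adjusted p = 1e-14). After Yijung-tang it had 113 and 113 CPM at the high dose and 83.8 and 86.8 CPM at the medium dose (0.41, SE 0.0509, adjusted p = 3.74e-08). Its smallest called rises were those of Citri (0.12, SE 0.0423, adjusted p = 0.0487) and Zizyphi (0.20, SE 0.0521, adjusted p = 0.0116). The Citri call was lost without high-dose replicate 2 or 3 or low-dose replicate 1 or 2, and the Zizyphi call without high-dose replicate 3 or either low-dose replicate.

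TXNRD1 rose to 413, 411 and 429 CPM at the high dose of Bupleuri, against 261, 262 and 253 CPM at the low dose (0.69, SE 0.0382, adjusted p = 4.27e-22). After Coptidis its course turned round: the low-dose libraries had 271 and 283 CPM, the medium-dose libraries 328 and 328 CPM and the high-dose libraries 257 and 252 CPM. The medium dose was higher than the low dose (0.25, SE 0.0468, adjusted p = 7.98e-05), and the high dose lower than the low dose (-0.12, SE 0.0472, adjusted p = 0.0276), although the call of the high dose was lost without high-dose replicate 3 (adjusted p = 0.102) or low-dose replicate 3 (adjusted p = 0.155). PRDX1, an abundant peroxiredoxin that TXN reduces, fell after Coptidis to 265 ± 3.85 CPM at the high dose, against 404 ± 1.32 CPM at the low dose (SD, n = 2 each; -0.61, SE 0.0588, adjusted p = 4.94e-13 by edgeR), and was called in no other extract.

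Of the NADPH-producing enzymes, PGD, which acts in the pentose phosphate pathway, had 242, 235 and 248 CPM at the high dose of Cimicifugae against 207, 205 and 213 CPM at the low dose (0.21, SE 0.0338, adjusted p = 7.82e-06), and 261 and 248 CPM at the high dose of Yijung-tang against 200 and 215 CPM at the medium dose (0.29, SE 0.0412, adjusted p = 7.34e-07). These were the 2 comparisons of 7 in which PGD was called. ME1, malic enzyme, was called after Yijung-tang alone, with 17.6 and 18.2 CPM at the high dose and 14.6 and 12.3 CPM at the medium dose (0.41, SE 0.087, adjusted p = 0.000821, and 0.0738 without medium-dose replicate 2). TKT, the transketolase of the non-oxidative branch, rose after Coptidis to 770 ± 7.83 CPM, against 517 ± 4.12 CPM at the low dose (SD, n = 2 each; 0.58, SE 0.0386, adjusted p = 2.32e-19 by edgeR). Of 16 tested NADPH genes outside the list, 4 rose and 0 fell after Yijung-tang (3.98% and 4.95% of all genes), and 2 rose and 1 fell after Cimicifugae (4.67% and 5.7% of all genes).

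NQO1, the quinone reductase that is the usual marker of NRF2 activity, gave the smallest adjusted p of all members in 4 of the 7 comparisons. It had 175, 178 and 172 CPM at the low dose of Cimicifugae, 199, 188 and 178 CPM at the medium dose and 275, 280 and 284 CPM at the high dose (high against low 0.67, SE 0.0445, adjusted p = 1.85e-17). High-dose Yijung-tang had 279 and 295 CPM, against 173 and 176 CPM at the medium dose (0.72, SE 0.0543, adjusted p = 4.6e-15). High-dose Aconiti had 227 and 229 CPM, against 163, 157 and 161 CPM at the low dose (0.51, SE 0.0494, adjusted p = 1.41e-11). Rises after Zizyphi (0.30, SE 0.0551), Bupleuri (0.29, SE 0.0448) and Citri (0.25, SE 0.0448) were smaller and also passed. High-dose Coptidis, with 151 and 166 CPM against 156 and 156 CPM at the low dose, overlapped its low dose and was not called, while its medium dose had 181 and 173 CPM and was higher than the low dose (0.18, SE 0.0552, adjusted p = 0.0208).

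**Figure D4:**
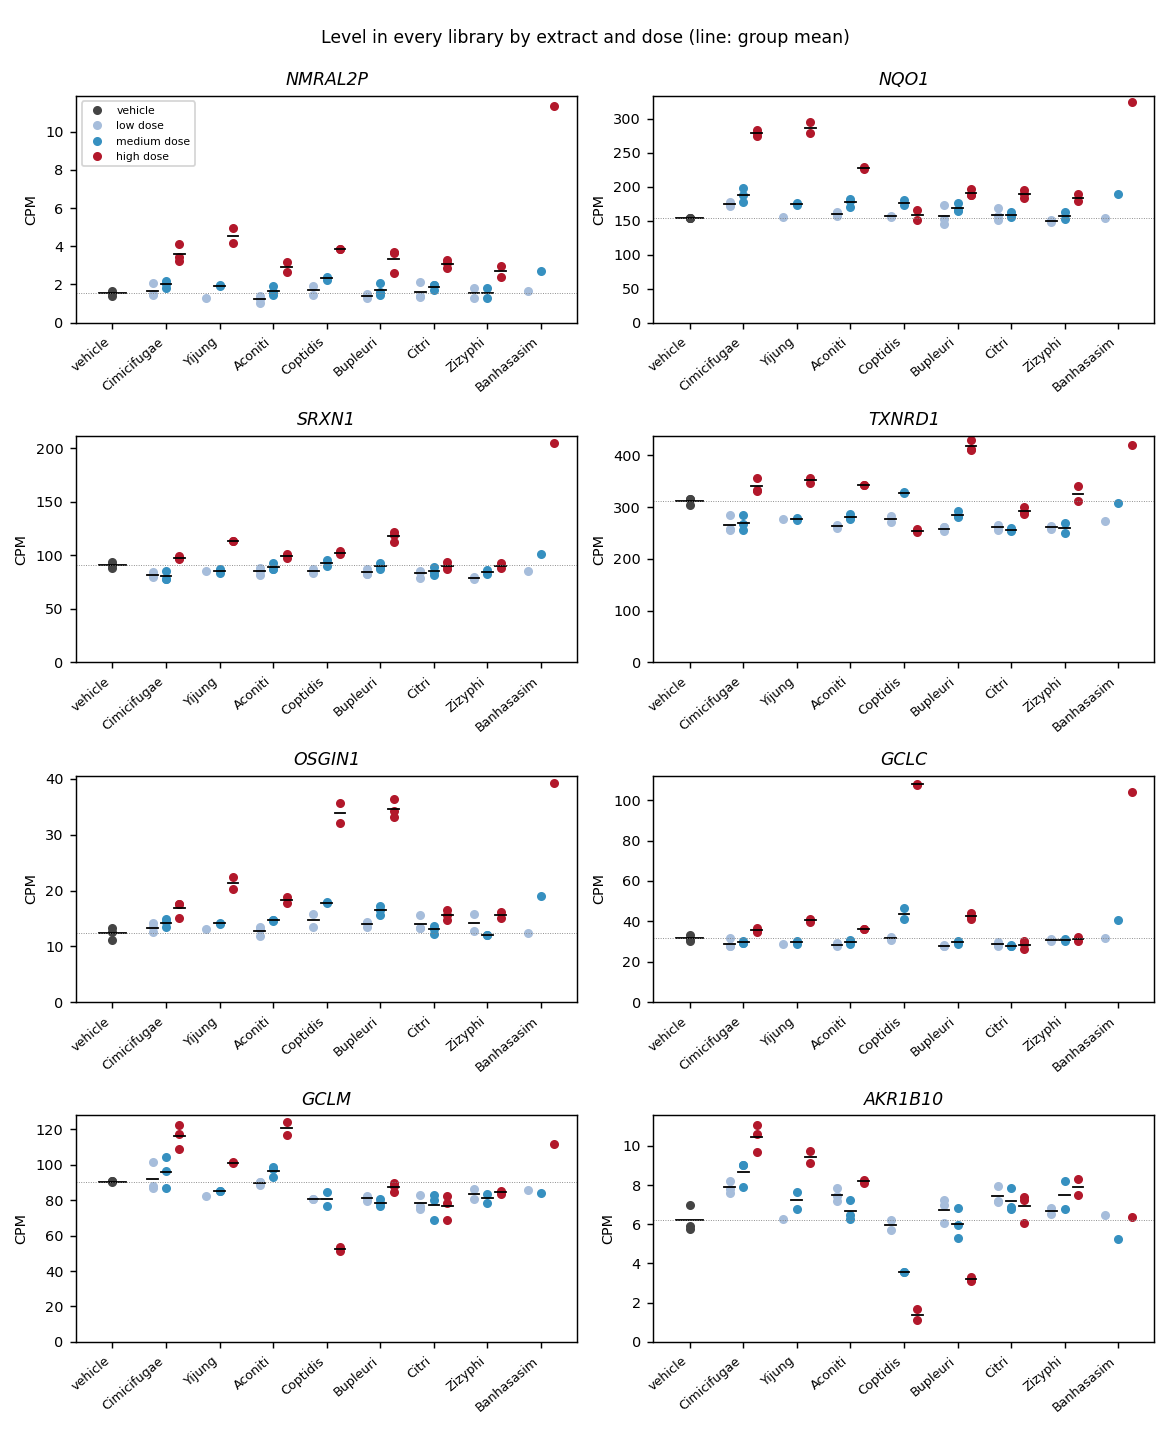
Level of 8 members in each of 58 libraries, in CPM on axes that start at 0, with the vehicle first and the low, medium and high dose of each extract from left to right; short lines are group means and the dotted line is the vehicle mean. NQO1 is highest in high-dose Banhasasim-tang, Yijung-tang and Cimicifugae, while AKR1B10 at high dose lies below the vehicle after Coptidis and Bupleuri and above it after Cimicifugae and Yijung-tang.

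Among the aldo-keto reductases, AKR1B10, which reduces aldehydes and retinal, moved in opposite directions. It had 5.71 and 6.22 CPM at the low dose of Coptidis, 3.57 and 3.57 CPM at the medium dose and 1.69 and 1.10 CPM at the high dose, a fall at high dose of 4.22-fold (-2.08, SE 0.179, adjusted p = 3.56e-15). Bupleuri lowered it to 3.11, 3.15 and 3.30 CPM, against 6.96, 6.04 and 7.25 CPM at its low dose (-1.08, SE 0.113, adjusted p = 8.6e-12). Cimicifugae raised it to 9.67, 10.6 and 11.1 CPM, against 7.60, 8.23 and 7.82 CPM (0.40, SE 0.0935, adjusted p = 0.00206). Yijung-tang raised it by 0.38 (SE 0.114, adjusted p = 0.0235), a call that was lost without high-dose replicate 1 or 2 or medium-dose replicate 2 (adjusted p 0.0545, 0.195 and 0.224). AKR1C1, which reduces ketosteroids and quinones, rose after Yijung-tang to 39.6 and 43.5 CPM, against 24.4 and 27.2 CPM at the medium dose (0.69, SE 0.0828, adjusted p = 1.29e-08), and after Aconiti to 47.8 and 50.5 CPM, against 30.6, 31.3 and 30.7 CPM (0.67, SE 0.0727, adjusted p = 4.14e-10). It was also higher after Cimicifugae (0.47), Citri (0.32) and Bupleuri (0.27). After Coptidis AKR1C1 was not called (-0.17), but the sum of AKR1C1 and its copy AKR1C2 fell (-0.28, adjusted p = 0.00477). EPHX1, microsomal epoxide hydrolase, fell after Coptidis (-0.63, SE 0.0591, adjusted p = 1.01e-13). Its exons overlap TMEM63A on the opposite strand, which held 36.3% as many counts.

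Of the transport genes, SLC48A1, which carries haem out of endosomes and lysosomes, rose after Cimicifugae to 39.6, 39.6 and 41.4 CPM, against 24.9, 28.5 and 29 CPM at the low dose (0.55, SE 0.0543, adjusted p = 3.51e-11). It rose also after Yijung-tang (0.50, SE 0.0656) and Aconiti (0.47, SE 0.0595), and these values carry the limit of its overlap with HDAC7. ABCC3, an exporter of glucuronides, fell after Coptidis to 71.8 ± 2.38 CPM, against 127 ± 1.41 CPM at the low dose (SD, n = 2 each; -0.82, SE 0.068, adjusted p = 2.3e-15 by edgeR). ABCC1, which exports glutathione conjugates, fell after Coptidis (-0.30, SE 0.0491, adjusted p = 3.7e-07) and Citri (-0.15, SE 0.0395, adjusted p = 0.00571).

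Among the other targets, NMRAL2P, a transcribed pseudogene described as an NRF2 target, had the largest fold in most extracts from a low base. Its high-dose libraries had 4.94 and 4.17 CPM after Yijung-tang, against 1.89 and 1.98 CPM at the medium dose (1.225, SE 0.193, adjusted p = 5.75e-06). After Bupleuri it had 3.68, 3.66 and 2.59 CPM at the high dose and 1.51, 1.38 and 1.28 CPM at the low dose (1.26, SE 0.175, adjusted p = 2.96e-08). Over all 7 extracts its log2 fold change lay between 0.83 and 1.26. The Zizyphi value of 0.83 was not called without high-dose replicate 2 (adjusted p = 0.139) or low-dose replicate 2 (adjusted p = 0.269). OSGIN1, an oxidative stress growth inhibitor, had 36.3, 34.3 and 33.3 CPM at the high dose of Bupleuri against 13.5, 14.1 and 14.4 CPM at the low dose (1.305, SE 0.0686, adjusted p = 6.42e-23). After Coptidis it had 32.1 and 35.7 CPM at the high dose and 15.8 and 13.5 CPM at the low dose (1.21, SE 0.0861, adjusted p = 2.59e-18). ABHD4, a phospholipid hydrolase, rose after Coptidis (0.91, SE 0.0674, adjusted p = 1.42e-17), Yijung-tang (0.30, SE 0.0678, adjusted p = 0.00171) and Bupleuri (0.22, SE 0.0555, adjusted p = 0.000867), and fell after Zizyphi (-0.31, SE 0.071, adjusted p = 0.00245) and Citri (-0.23, SE 0.0576, adjusted p = 0.00392). The Zizyphi call was lost without high-dose replicate 3 or low-dose replicate 3 (adjusted p 0.19 and 0.0834).

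Over the 38 members, log2 fold changes correlated between Cimicifugae and Yijung-tang with r = 0.844, where the same correlation over all 17680 genes was 0.087. For Coptidis and Bupleuri r was 0.692 over the members and 0.335 over all genes, and for Coptidis and Yijung-tang 0.0542 and 0.119. Of all pairs, Citri and Aconiti had the highest r over the members, 0.854, with 0.135 over all genes. Zizyphi and Citri had 0.776 and 0.165. Coptidis and Zizyphi had the lowest over the members, 0.0403, with 0.078 over all genes. These pairs share no library but share the cell line and the fit, genes are not independent replicates, and the values are given as a description.

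Outside the list, SLC7A11, the cystine importer that feeds glutathione synthesis, rose with dose in 6 of 7 extracts, all but Zizyphi. Its log2 fold change was 1.23 after Coptidis (SE 0.0678), 0.94 after Bupleuri (SE 0.0557), 0.93 after Yijung-tang (SE 0.067), 0.80 after Aconiti (SE 0.0609), 0.66 after Cimicifugae (SE 0.0552) and 0.19 after Citri (SE 0.0558). Of 40 tested redox genes outside the list, which include SLC7A11, 4 rose and 4 fell after Cimicifugae, where 10.4% of all genes were called, and 5 rose and 1 fell after Yijung-tang, where 8.93% were. SQSTM1, whose protein p62 competes with NRF2 for KEAP1, rose after Bupleuri to 1970 ± 28.2 CPM against 553 ± 24.6 CPM at the low dose (SD, n = 3 each; 1.84, SE 0.0351, adjusted p = 6.56e-43 by edgeR), and fell after Zizyphi to 358 ± 12.5 CPM against 498 ± 11.6 CPM (SD, n = 2 each; -0.47, SE 0.0425, adjusted p = 7.64e-12 by edgeR). Of the 17 tested genes of NRF2 control outside the list, 9 rose and 5 fell after Coptidis (65.4% of all genes called), 7 rose and 2 fell after Bupleuri (39%) and 3 rose and 0 fell after Cimicifugae (10.4%). After Aconiti (9.43%), Yijung-tang (8.93%) and Citri (13.6%) 2 rose and 0 fell each, and after Zizyphi (7.24%) 0 rose and 1 fell.

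Between medium and low dose, Coptidis raised 10 members and lowered 1, where 13.4% of all genes were called (7.61% higher, 5.81% lower). The count of 11 was 6 without low-dose replicate 3 (8.2% of all genes called) or without medium-dose replicate 2 (8.33%), and 2 with both divergent libraries (1.5%). GCLC (0.47, SE 0.0616, adjusted p = 3.35e-08) and OSGIN1 (0.28, SE 0.0912, adjusted p = 0.0268) were among the higher, and AKR1B10 was the lower one (-0.74, SE 0.141, adjusted p = 9.81e-05). For the other 5 herbs edgeR called 0 members at the medium dose, where the share of all genes called was 0.00566% for Zizyphi (0% higher, 0.00566% lower), 0.0113% for Citri (0.00566% higher, 0.00566% lower), 0.373% for Cimicifugae (0.153% higher, 0.221% lower), 0.351% for Bupleuri (0.271% higher, 0.0792% lower) and 0.0509% for Aconiti (0.0396% higher, 0.0113% lower). At an unadjusted p under 0.05 there were 4 members for Zizyphi, 2 for Citri, 3 for Cimicifugae, 7 for Bupleuri and 6 for Aconiti. The share of all genes at that threshold was 5.42%, 6.54%, 10.1%, 10.2% and 5.08%, in the same order. DESeq2 called 1 member, TXNRD1, after Bupleuri (0.526% of all genes called) and 0 in the other 4 extracts. The Bupleuri count was 2 without low-dose replicate 2, where 4.32% of all genes were called.

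Differences between extracts of one set were tested as differences of their high-against-low effects. Cimicifugae exceeded Citri in 9 members and fell short in 0 by edgeR (17 and 0 at an unadjusted p under 0.05, 10 and 0 by DESeq2), where 1.04% of all genes were called (0.713% higher, 0.328% lower). The share of all genes is not given here for the unadjusted and DESeq2 counts. By edgeR the count was 5 without Cimicifugae high-dose replicate 1 (0.719% of all genes called) or its low-dose replicate 2 (0.747%) or 3 (1.04%). It was also 5 without Citri low-dose replicate 1 (0.679%), and 4 without Citri high-dose replicate 2 (0.634%). It was 0 with both divergent libraries (0.0224% of all genes called). The difference was 0.42 for NQO1 (SE 0.0631, adjusted p = 1.3e-05) and 0.36 for GCLM (SE 0.0857, adjusted p = 0.0205). The GCLM call was also lost in each fit without 1 library just named (adjusted p 0.0645 to 0.0873 by edgeR). With both divergent libraries neither was called, at 0.42 for NQO1 and 0.37 for GCLM. Bupleuri exceeded Aconiti in 8 members and fell short in 9, where 23.2% of all genes were called (12.8% higher, 10.4% lower), with OSGIN1 at 0.79 (SE 0.108) and AKR1B10 at -1.22 (SE 0.155). Coptidis exceeded Zizyphi in 12 and fell short in 15, where 55.2% were called (28% higher, 27.2% lower). With both divergent libraries these counts were 8 in all for Bupleuri against Aconiti (9.43% of all genes called) and 13 for Coptidis against Zizyphi (28.5%). The OSGIN1 difference of Bupleuri against Aconiti was then 0.41 and not called (adjusted p = 0.242 by edgeR). The doses of Coptidis and Bupleuri in µg/mL were not those of Zizyphi and Aconiti, whereas those of Cimicifugae and Citri were equal.

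Against the vehicle, set and treatment cannot be told apart, since no vehicle library carries a set number of the extracts. The 6 low doses, which share the 3 vehicle libraries, already stood off from them. Members called at low dose were 2 higher and 3 lower for Coptidis (7.26% of all genes called, 3.38% higher and 3.88% lower), 3 and 6 for Zizyphi (11.6%, 4.74% higher and 6.88% lower), 5 and 7 for Citri (16%, 6.79% higher and 9.19% lower), 14 and 4 for Cimicifugae (20.6%, 8.73% higher and 11.9% lower), 9 and 5 for Bupleuri (26.7%, 12% higher and 14.7% lower) and 8 and 4 for Aconiti (19.8%, 8.34% higher and 11.5% lower). The Coptidis count of 5 was 2 without low-dose replicate 2 (0.825% of all genes called), and that of Zizyphi 5 in place of 9 without low-dose replicate 3 (2.14%). With both divergent libraries it was 1 for Cimicifugae (0.729% of all genes called) and 0 for the other 5 low doses (0.0448% to 0.219% of all genes called). TXNRD1 was lower in all 6 low doses (-0.27 to -0.17 on the log2 scale), with 316, 316 and 304 CPM in the vehicle, and UGDH, which makes the UDP-glucuronate used for conjugation, was lower in all 6 (-0.37 to -0.27). ABCC3 (0.25 to 0.36) and ABHD4 (0.27 to 0.33) were higher in all 6. UGDH, named with ABCC3 and ABHD4 for this pattern after the values were seen, is otherwise outside the naming rule.

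**Figure D5:**
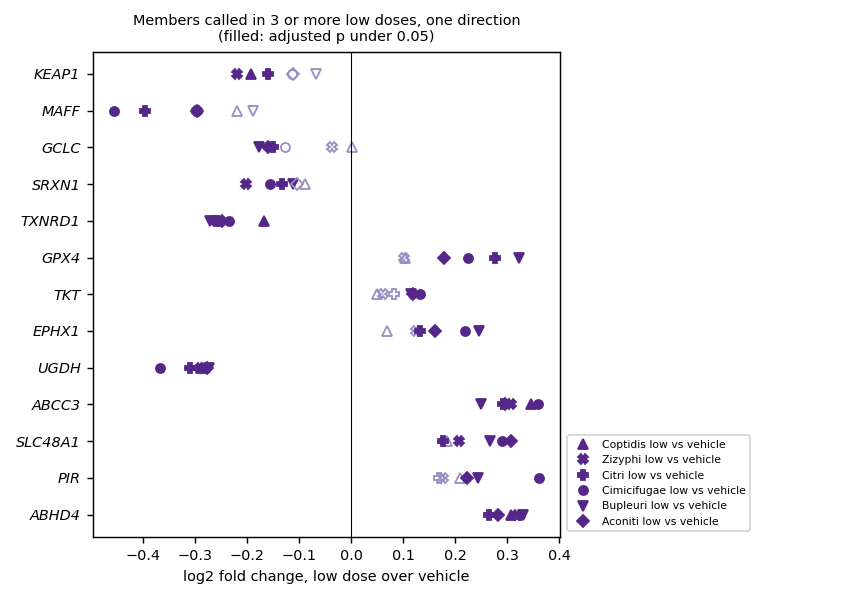
Log2 fold change of low dose over vehicle (horizontal) for the 13 members called in the same direction in 3 or more of 6 low doses (vertical), with one shape per extract and filled symbols for an adjusted p under 0.05. TXNRD1 and UGDH lie left of 0 and ABCC3 and ABHD4 right of 0 with filled symbols for all 6 extracts, which share the 3 vehicle libraries.

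At high dose the members called against the vehicle were 14 higher and 18 lower for Coptidis (66.6% of all genes called, 33.9% higher and 32.6% lower), 8 and 3 for Zizyphi (21.4%, 9.47% higher and 11.9% lower), 12 and 6 for Citri (31.3%, 14.3% higher and 17% lower), 24 and 3 for Cimicifugae (35.6%, 16.5% higher and 19.1% lower), 20 and 2 for Bupleuri (39.3%, 20.1% higher and 19.3% lower), 21 and 2 for Aconiti (27.3%, 12.5% higher and 14.8% lower) and 25 and 2 for Yijung-tang (30.7%, 14.1% higher and 16.6% lower). The Zizyphi count of 11 was 6 without high-dose replicate 2, where 11.9% of all genes were called. Members with both divergent libraries numbered 1 for Zizyphi (1.47% of all genes called), 1 for Citri (4.4%), 15 for Cimicifugae (6.85%), 11 for Bupleuri (13.7%) and 15 for Yijung-tang (4.16%). NQO1 was higher than in the vehicle, which had 154, 155 and 154 CPM, in all high doses but that of Coptidis. SRXN1 was higher in Bupleuri (0.38, SE 0.0423), Yijung-tang (0.31, SE 0.0468) and Coptidis (0.18, SE 0.048), but not called against the vehicle in the other 4, although it was higher than at low dose in each. The same held for TXNRD1 after Zizyphi (0.07, SE 0.0427) and Citri (-0.09, SE 0.0383), whose high doses were not called against the vehicle.

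Banhasasim-tang had 1 library per dose, so its differences have no replicate check and no test, and intervals are exact 95% Poisson intervals that cover counting error only. From low to medium to high dose NMRAL2P had 1.65, 2.69 and 11.4 CPM (interval at the high dose 10.1 to 12.7 CPM), OSGIN1 12.3, 19.1 and 39.2 CPM (36.9 to 41.6 CPM), GCLC 31.6, 40.7 and 104 CPM (100 to 108 CPM), and SRXN1 85.1, 101 and 205 CPM (200 to 211 CPM). NQO1 had 153, 189 and 325 CPM (318 to 332 CPM). GCLM had 86.0, 83.9 and 112 CPM, and AKR1B10 6.49, 5.27 and 6.35 CPM. At high over low dose 7 of 38 members were 2-fold or more higher and 0 lower, where 9.52% of all genes were past 2-fold (4.25% higher, 5.27% lower), and the median over members was 0.39 on the log2 scale against 0.00261 over all genes. The highest values of SRXN1 and NQO1 in the other 57 libraries were 122 and 295 CPM.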

How the data were processed

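RNA was sequenced as 100 bp paired ends from libraries made with a directional kit, per the labels' protocols. The authors deposited expected counts per gene, and the submitters' processing notes name RSEM 1.3.3, STAR 2.7.3a, the trimmer Trim Galore 0.6.5, the quality check FastQC 0.11.9 and the build hg38. The sources used here give neither annotation nor strand setting. Of the values 9.184% were not whole, and all were rounded. Overlaps and exon lengths come from GENCODE release 29.

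Genes were filtered with filterByExpr (minimum count 10), scaled by TMM, and tested by the package edgeR 4.0.16 (robust quasi-likelihood fit, R 4.3.3) in one fit of 54 libraries in 21 groups, with Benjamini-Hochberg adjustment over 17680 genes within each of 29 comparisons. The SE is the log2 fold change divided by the square root of F. Levels are CPM on TMM-scaled sizes. No replicates were duplicates (lowest chi-square per degree of freedom 1.93). DESeq2 1.42.0, other size factors, no filter, a replicate block, summed copies, the 2 divergent libraries and leaving out each library were alternatives. The fit was also run on simulated counts drawn with its own estimate of the spread, and that result is not given here. Those counts held no divergent library, so they cannot show how such libraries change the calls.

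The members and lists were chosen with earlier results of these data known. Named were 12 core members, up to 6 members each way per dose comparison by adjusted p, 4 each way per difference between extracts, and up to 3 listed genes each way per list; exceptions are stated. Water extracts and positive controls, named in the series text, were not analysed here. A result on 1 gene outside the members is not reported here.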

Additional observations from a re-analysis of the deposited data

Results flagged for a closer look

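Extracts of one set differed in their high-against-low effect on these members by edgeR's test of the difference itself; values are differences of log2 fold changes, the first extract minus the second. Coptidis minus Zizyphi was 2.38 for MAFF, 1.74 for GCLC, 1.72 for MAFG and 1.22 for ABHD4, and -2.32 for AKR1B10, -0.74 for ABCC3, -0.72 for TRIM16L and -0.63 for PRDX1. The TRIM16L value is uncertain, since TRIM16 and TRIM16L together gave 0.1012. With both divergent libraries PRDX1 was -0.63 and not called (adjusted p = 0.053 by edgeR). Bupleuri minus Aconiti was 0.79 for OSGIN1, 0.49 for MAFG, 0.36 for GSR and 0.31 for TXNRD1, and -1.22 for AKR1B10, -0.49 for SLC48A1, -0.40 for AKR1C1 and -0.19 for TKT. With both divergent libraries the calls of OSGIN1, MAFG and AKR1C1 were lost. They were then 0.41, 0.28 and -0.42 (adjusted p 0.242, 0.2 and 0.186 by edgeR). Cimicifugae minus Citri, at equal doses, was 0.42 for NQO1, 0.43 for SLC48A1, 0.22 for TKT and 0.36 for GCLM. With both divergent libraries none of these was called. The GCLM call was also lost in several fits without 1 library (adjusted p 0.0645 to 0.0873 by edgeR). The cause of these differences was not tested.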

How the results depend on the processing

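Of the counts of members called in 29 comparisons, all kept within 1.5 times with DESeq2's size factors and with the replicate block, which also changed none of 130 named values. Samples of the same replicate number were not treated as pairs. No comparison had every such pair correlated over 0.1, and the highest value was 0.139 (Cimicifugae, medium against low dose). A low correlation over all genes cannot exclude pairing, since counting error also lowers it. DESeq2 gave 1 member for Bupleuri at medium dose (0.526% of all genes called), where the count was 0. No filter gave 1 for Aconiti at medium dose (0.32%), where the count was also 0. With both divergent libraries, counts between doses were 0 for Zizyphi, 1 for Citri, 4 for Cimicifugae, 10 for Bupleuri, 3 for Yijung-tang and 2 for Coptidis at medium dose. Against the vehicle they were 1 for Zizyphi, 1 for Citri, 15 for Cimicifugae, 11 for Bupleuri and 15 for Yijung-tang at high dose, and 1 for Cimicifugae and 0 for Coptidis, Zizyphi, Citri, Bupleuri and Aconiti at low dose. Between extracts they were 13 for Coptidis minus Zizyphi, 0 for Cimicifugae minus Citri and 8 for Bupleuri minus Aconiti. The shares of all genes called with both divergent libraries are given beside these counts in the results above. With them GCLM after Aconiti was -0.003035, and 51 of 130 named values lost their call; the cause was not tested. With only the pair's libraries in the fit, chosen after seeing the data, Zizyphi gave 3.

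Summing TRIM16 and TRIM16L turned TRIM16L to 0.05789 after Coptidis (adjusted p = 0.297) and 0.1012 for Coptidis minus Zizyphi (adjusted p = 0.21) by edgeR. Leaving out 1 library gave 3 to 5 members for Zizyphi, 7 to 10 for Citri, 6 to 9 for Coptidis at medium dose, 0 to 2 for Bupleuri at medium dose, 6 to 9 for high-dose Zizyphi against vehicle, 2 to 6 and 5 to 8 for low-dose Coptidis and Zizyphi against vehicle and 4 to 8 for Cimicifugae minus Citri. Members that kept their call in every such fit were 15 of 23 higher after Cimicifugae, 15 of 23 after Yijung-tang, 11 of 14 after Aconiti, 14 of 15 after Coptidis, 14 of 15 after Bupleuri, 4 of 9 after Citri and 2 of 5 after Zizyphi. Of the lower they were 13 of 14, 1 of 6, 2 of 2 and 0 of 2 for the last 4, in that order.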
